A study of Mus musculus with 9 samples.

Results

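Transcripts of Atf3, Nfkbiz, Cebpa and Cebpb were followed across 9 RNA sequencing libraries of mouse bone marrow-derived macrophages, cells grown into macrophages from bone marrow in culture. The genes were taken by name from 22165 gene rows of 1 count table. They are 4 of the 5 regulators of the late response to bacterial lipopolysaccharide (LPS) that were looked for, and the fifth, Cebpd, was not analysed here. All cells came from C57BL/6N mice aged 6 to 16 weeks and were given LPS at 100 ng/mL for 24 h, so no group is unstimulated. Of the libraries, 3 are labelled WT (wild type) and 3 are labelled KO (Irg1-/-, a deletion of the enzyme that makes itaconate). Another 3, also labelled Irg1-/-, received 1 mM itaconate 4 h after LPS. The removed part of Irg1 is not stated. Whether replicates are separate animals is not stated either, and the spread behind the p-values may thus be technical.

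ATF3 and the C/EBP proteins are basic leucine zipper (bZIP) transcription factors, which bind DNA as pairs held together by a zipper of leucines. ATF3 is induced by stress and by Toll-like receptors and restrains several cytokine genes in macrophages. IκBζ, the product of Nfkbiz, is a nuclear member of the IκB family that joins NF-κB on DNA and is needed for late LPS genes such as Il6 and Lcn2. C/EBPα establishes myeloid cells, whereas C/EBPβ and C/EBPδ are raised by inflammatory stimuli and act with NF-κB at many of the same genes.

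The genotype check and the sample descriptions bear on every comparison below. Irg1 (Acod1) reads went against 4 labels: 94 and 117 reads were found under the labels WT replicates 1 and 2, against 44920 under KO replicate 3 and 60716 under itaconate replicate 3. The description labels also begin with a number from 1 to 4 before the barcode, which the labels do not define. All 3 WT libraries and KO replicates 1 and 2 carry number 1, KO replicate 3 and itaconate replicate 1 carry number 2, and itaconate replicates 2 and 3 carry numbers 3 and 4. The number and the group are thus partly the same split. Gene reads ranged from 7361671 to 20430359 per library. All 10 macrophage markers, among them Adgre1, Csf1r and Cd68, exceeded 3 reads in every library. Their summed level was 9868 to 11684 CPM (counts scaled to a common total of gene reads) in WT, 7963 to 10474 in KO and 4841 to 8755 in itaconate libraries, so the itaconate and WT ranges did not overlap. Markers of lymphocytes and of mast cells summed to at most 1.22 CPM, with Cd3e, Cd79a and Cpa3 at 0 reads. Itaconate replicate 3 stood apart: its mean correlation with the other libraries was 0.909, against 0.939 to 0.954, and it had the largest share of reads outside genes (33.7%). The mitochondrial share of gene reads was 0.709% there, the lowest, and at most 1.73% in the other itaconate libraries, against 1.72% to 2.21% in KO and 2.08% to 2.57% in WT. Neutrophil markers summed to 191 to 333 CPM, mostly S100a8, S100a9 and Mmp8. Fibroblast markers summed to 168 to 276 CPM and dendritic cell markers to at most 2.22 CPM. The part of these markers, of the mitochondrial share and of itaconate replicate 3's read makeup in the results was not tested, and fewer cells of a type cannot be told apart from less RNA per cell.

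Promoters of 3 of the genes are shown because both ATF and C/EBP proteins are bZIP factors and the family's own promoters are known to carry sites for such factors. RefSeq sequence (GRCm38.p6) of the 250 bases before each gene's RefSeq start is given 5′ to 3′ on the gene's strand. The Atf3 stretch lies at chr1:191183334-191183583 (minus strand), before a RefSeq start that is inside the GENCODE span of the gene and not at that span's 5′ end (191218039). No sequence before the 5′ end was used here. The other stretches are that of Cebpb at chr2:167688665-167688914 (plus) and that of Cebpa at chr7:35119043-35119292 (plus). Capitals mark the core of the ATF/CREB site (TGACG on either strand) in the sequences of Atf3 and Cebpb and, in that of Cebpa, a TATA box.
Atf3: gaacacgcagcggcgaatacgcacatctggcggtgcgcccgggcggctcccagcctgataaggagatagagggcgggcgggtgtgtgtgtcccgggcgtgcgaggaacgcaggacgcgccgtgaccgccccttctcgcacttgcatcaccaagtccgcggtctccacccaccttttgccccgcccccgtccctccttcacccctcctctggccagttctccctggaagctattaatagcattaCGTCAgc
Cebpb: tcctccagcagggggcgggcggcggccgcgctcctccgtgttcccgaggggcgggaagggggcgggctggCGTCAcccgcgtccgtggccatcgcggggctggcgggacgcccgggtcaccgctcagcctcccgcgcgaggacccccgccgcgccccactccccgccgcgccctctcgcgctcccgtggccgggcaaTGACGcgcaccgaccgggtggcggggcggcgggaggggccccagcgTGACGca
Cebpa: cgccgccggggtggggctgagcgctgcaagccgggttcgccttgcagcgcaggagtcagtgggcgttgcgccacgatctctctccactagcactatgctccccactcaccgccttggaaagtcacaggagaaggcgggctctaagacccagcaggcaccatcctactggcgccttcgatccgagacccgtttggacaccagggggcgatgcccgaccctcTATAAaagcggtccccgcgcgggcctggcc
The Atf3 stretch held 1 such core, on the opposite strand from -7 to -3 relative to the start. The Cebpb stretch held 3, at -53 to -49 and -7 to -3 on the listed strand and at -180 to -176 on the opposite strand. At least 1 such core is in 17.8% of 32851 such stretches, and the share with 3 was not counted. Cebpa had no such core and a TATA box (the letters TATAA) at -30 to -26, which 16% of stretches hold on the listed strand. The C/EBP consensus TTGCNNNAA, in 8.29% of stretches on either strand, was in none of the 3, which says only that these letters are not in these windows. These matches describe sequence and were not tested for binding.

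Cebpb differed most between libraries. C/EBPβ is an activator of acute-phase and cytokine genes whose messenger RNA LPS induces. The gene (ENSMUSG00000056501.3) is a single exon that spans 167688915 to 167690418 of chromosome 2, plus strand (GRCm38). In the libraries labelled WT replicates 1 to 3 it stood at 526, 609 and 866 CPM, scaled by the trimmed mean of M-values (TMM) as are all gene levels below. In those labelled KO it stood at 342, 607 and 1745.5 CPM, and in those labelled itaconate at 1961, 1506 and 1987 CPM. Every itaconate library was therefore above every WT library, while KO replicate 3 lay among the itaconate libraries. Means were 667 ± 177 CPM in WT, 898 ± 746 in KO and 1818 ± 270 in itaconate (SD, n = 3).

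**Figure D1:**
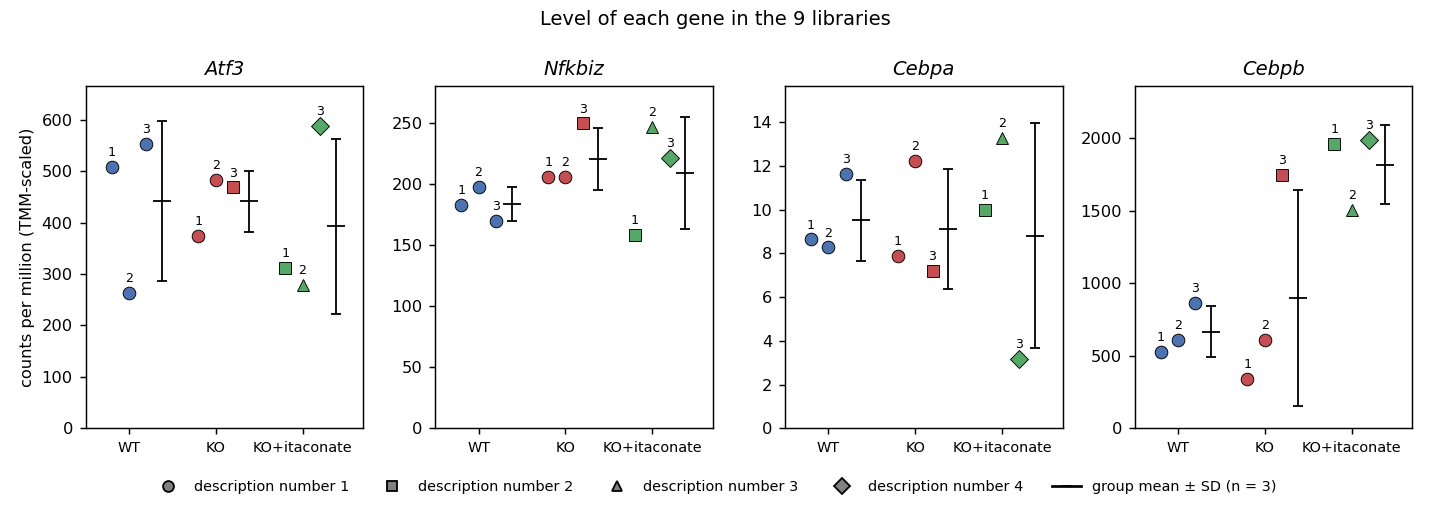
TMM-scaled CPM (y axis, linear from 0, separate scale per gene) of the 4 genes in each library (points, numbered by replicate, coloured by labelled group, shaped by the number in the description label), with group mean ± SD (n = 3). For Cebpb the 5 circles (number 1) lie between 342 and 866 and the other 4 points between 1506 and 1987.

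Between itaconate and WT the Cebpb log2 fold change was 1.45 ± 0.46 (SE), a 2.72-fold difference with a 95% interval of 1.38 to 5.36. It did not pass in edgeR's quasi-likelihood test after Benjamini-Hochberg adjustment over all 10781 genes tested (unadjusted p = 0.00657, adjusted p = 0.515). Ranges of itaconate and WT were apart, with itaconate higher, for 7.3% of all genes, and 8.89% of genes had an unadjusted p under 0.05 in either direction. With every low-count gene kept, edgeR called Cebpb (1.43, adjusted p = 0.0402), in a fit that called 0.556% of 14936 genes as higher and 0.0603% as lower. Between itaconate and KO the log2 fold change was 1.02 ± 0.45, or 2.02-fold (1.04 to 3.96; unadjusted p = 0.0405, adjusted p = 0.592). In that comparison 8.3% of genes had an unadjusted p under 0.05. Between KO and WT it was 0.43 ± 0.45, or 1.35-fold (0.692 to 2.62; adjusted p = 0.995). These 3 comparisons share libraries and are not independent. No gene of the table passed the edgeR threshold in any of them (0% called in each direction), while 337, 895 and 958 genes had an unadjusted p under 0.05 in the KO to WT, itaconate to KO and itaconate to WT comparisons. DESeq2 called 1, 11 and 23 genes and limma-voom 0, 0 and 0, none of them Cebpb. As shares of the genes that DESeq2 gave an adjusted p, the calls were 0.00672% higher in the first comparison, 0.0446% higher and 0.0535% lower in the second, and 0.161% higher and 0.034% lower in the third.

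**Figure D2:**
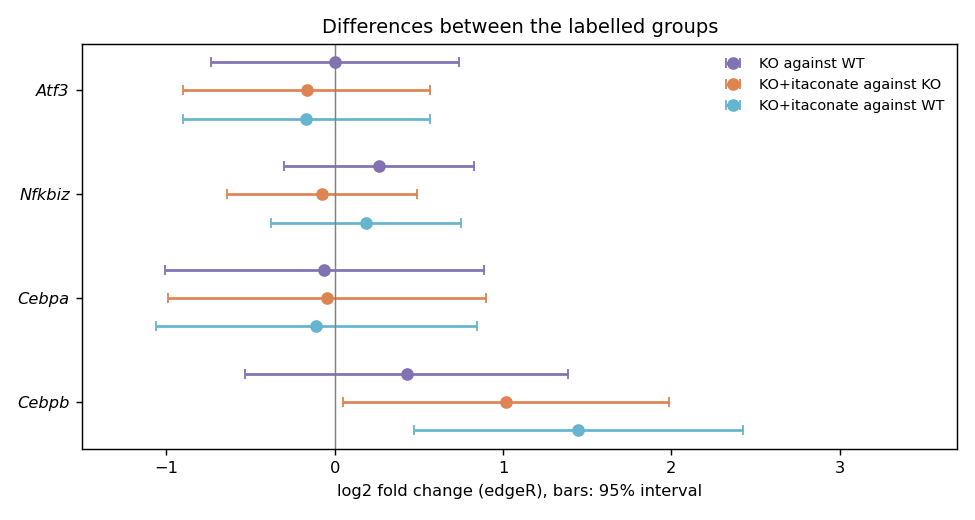
Log2 fold change (x axis) of each gene in the 3 comparisons, points with 95% intervals from the edgeR fit of all 9 libraries. Intervals of Cebpb for itaconate against KO and against WT lie above 0 before adjustment, and the other 10 cross 0.

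The differences that involve KO turned on the library labelled KO replicate 3. Without it Cebpb was -0.47 ± 0.34 for KO against WT (adjusted p = 0.954) and 1.93 ± 0.36 for itaconate against KO (adjusted p = 0.107). With the 4 libraries of conflicting Irg1 reads left out, itaconate exceeded KO by 1.84 ± 0.36 and was called (adjusted p = 0.0145). That fit called 0.494% of 11342 genes as higher and 1.42% as lower, and it sets 2 KO libraries of number 1 against 2 itaconate libraries of numbers 2 and 3. Against the single WT library kept there, Cebpb was -0.85 ± 0.41 in KO (adjusted p = 0.487) and 1 ± 0.44 in itaconate (adjusted p = 1), in comparisons that called 0.00882% of genes in each direction and 0.00882% as lower only. Within each labelled group the library with the most Irg1 reads (replicate 3 of each) also had the highest Cebpb.

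Cebpb was also split by description number, and by number KO replicate 3 falls on the side of the itaconate libraries. The 5 libraries of number 1 held 342 to 866 CPM of Cebpb and the other 4 held 1506 to 1987, a gap of 1.74-fold between the nearest libraries. Those 2 libraries, WT replicate 3 and itaconate replicate 2, also bound the gap between the WT and itaconate labels. Of the 10781 genes tested, 3.13% had all 4 of those libraries above all 5, and 5 genes had a wider gap. This split was looked at after the values were seen. Within number 1, Cebpb was lower in KO than in WT by a log2 fold change of -0.47 ± 0.32 (adjusted p = 0.644), and the 2 groups overlapped. Number 2 holds 1 KO library, at 1745.5 CPM, and 1 itaconate library, at 1961. With the number as a term in the edgeR model, the itaconate difference was 0.17 ± 0.48 against KO (adjusted p = 1) and -0.32 ± 0.57 against WT (adjusted p = 0.998), each resting on that pair. No number holds both WT and itaconate libraries, so the second value also runs through the KO libraries of numbers 1 and 2.

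**Figure D3:**
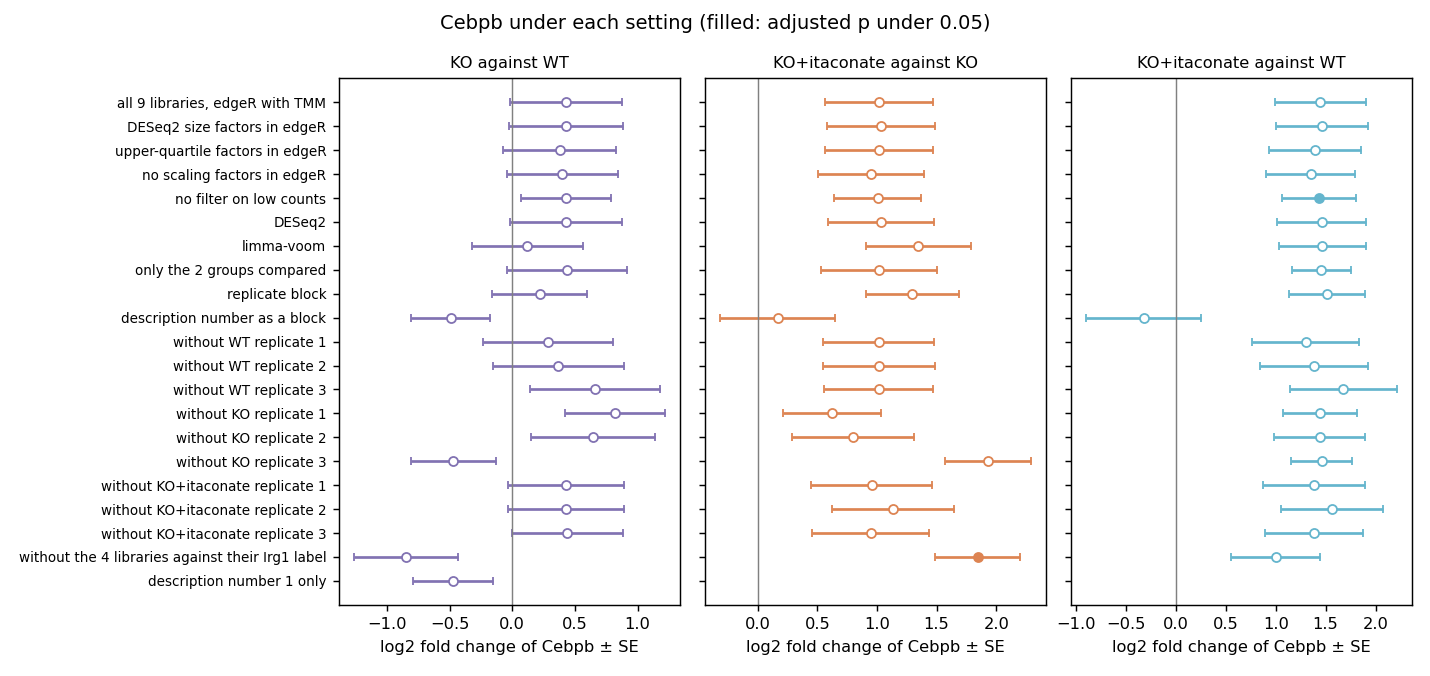
Log2 fold change of Cebpb ± SE (x axis) in the 3 comparisons under each setting (rows), filled where the adjusted p was under 0.05. For KO against WT the value turns from 0.43 to -0.47 without KO replicate 3, and for itaconate against KO it is 0.17 with the description number as a block.

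Cebpb shares part of its span with Tmem189, which runs on the opposite strand of chromosome 2 from 167642608 to 167689822. The libraries keep strand, but the sources used here do not say whether the counting used it. Tmem189 ranged from 280 to 386 CPM over the 9 libraries, lay at 357 CPM in itaconate replicate 1 and at 369 CPM in KO replicate 3, and showed no split by number.

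Atf3 had the same mean in KO and WT libraries and a wide spread in both WT and itaconate libraries. It (ENSMUSG00000026628.13) lies on the minus strand of chromosome 1 from 191170296 to 191218039. WT replicates 1 to 3 held 508.5, 264 and 553 CPM. The KO libraries held 374, 483 and 469 CPM, within the span of WT. Itaconate replicates held 312, 279 and 589 CPM, so that the lowest 3 of the 9 values were WT replicate 2 and itaconate replicates 1 and 2. Means were 442 ± 156, 442 ± 59.2 and 393 ± 170 CPM (SD, n = 3) for WT, KO and itaconate.

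No Atf3 difference passed. Its log2 fold change was 0 ± 0.34 for KO against WT, with a 95% interval from a 0.6-fold to a 1.66-fold level (adjusted p = 1.00 in edgeR). Itaconate differed from KO by -0.17 ± 0.35, an interval of 0.535-fold to 1.48-fold (adjusted p = 0.925). Itaconate differed from WT by the same -0.17 ± 0.35 (adjusted p = 0.902). The itaconate values rest on replicate 3, without which they were -0.59 against KO and -0.57 against WT, neither of them called. Without the 4 libraries of conflicting Irg1 reads Atf3 was -0.56 for itaconate against KO (adjusted p = 0.475) and -0.91 for itaconate against WT (adjusted p = 1). With the description number as a term these were -0.58 and -0.63, also not called.

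Nfkbiz varied least of the 4. It (ENSMUSG00000035356.16) lies on the minus strand of chromosome 16 from 55811375 to 55838899 and no annotated gene overlaps it. The level was 183, 198 and 170 CPM in WT replicates 1 to 3, 205, 205.5 and 249 CPM in KO, and 158, 247 and 221 CPM in itaconate. All 3 KO libraries were above all 3 WT libraries, and 4.85% of all genes were separated in this way. The itaconate libraries spanned both. Over the 9 libraries the coefficient of variation was 15.5%, and 4.93% of tested genes varied less (median 31.4%).

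Group means of Nfkbiz were 183 ± 13.9 CPM in WT, 220 ± 25.4 in KO and 209 ± 45.7 in itaconate (SD, n = 3). KO exceeded WT by a log2 fold change of 0.26 ± 0.27, with an interval of 0.811-fold to 1.78-fold (edgeR adjusted p = 0.995). The value stayed between 0.16 and 0.32 under 20 other settings and was called under none of them. Itaconate differed from KO by -0.08 ± 0.26 (0.641-fold to 1.4-fold, adjusted p = 0.958) and from WT by 0.19 ± 0.27 (0.769-fold to 1.68-fold, adjusted p = 0.85). Within number 2 the KO library held 249 CPM and the itaconate library 158, the highest and the lowest of the 9. With the number as a term, itaconate differed by -0.66 from KO and by -0.49 from WT, neither of them called.

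Cebpa was sparse. The gene of this myeloid factor (ENSMUSG00000034957.10, chromosome 7, 35119293 to 35121928, plus strand) held 30 to 162 reads per library, which limits its precision. WT replicates stood at 8.64, 8.28 and 11.6 CPM, KO replicates at 7.87, 12.2 and 7.18 CPM, and itaconate replicates at 10, 13.3 and 3.17 CPM. The 3 groups overlapped, and both the highest and the lowest library were labelled itaconate. Log2 fold changes were -0.06 ± 0.44 between KO and WT, -0.05 ± 0.44 between itaconate and KO, and -0.11 ± 0.45 between itaconate and WT (edgeR adjusted p = 0.998, 0.985 and 0.953), with intervals from about 0.479-fold to 1.86-fold. Without itaconate replicate 3, which also had the lowest macrophage marker sum, the last 2 were 0.34 and 0.30.

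No correlation between Atf3, Nfkbiz and Cebpa passed its test. Over the 9 libraries Atf3 and Nfkbiz had a Pearson r of -0.03 (Spearman rho -0.02) on the log2 CPM scale, Atf3 and Cebpa -0.4 (-0.25), and Nfkbiz and Cebpa -0.23 (-0.23). Exact permutation tests over the 6 pairs of genes gave adjusted p-values of 0.956, 0.872 and 0.872 for r, and of 0.982, 0.92 and 0.92 for rho. Without the 2 libraries farthest from the median of the first gene, r was 0.36, -0.35 and -0.14. Cebpb falls into 2 clusters of libraries, each with fewer than 6, so no pooled r is given for its 3 pairs.

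Genes with the most similar profile were named by the highest Pearson r over the 9 libraries, as a description of libraries that share groups, numbers and depth. For Cebpb no such genes are named, since its libraries form 2 clusters. Nearest to Atf3 were Riiad1 (0.91), Zfp850 (0.9) and Gbp2, an interferon-induced GTPase (0.9), the first 2 at no more than 4.44 CPM. Tnnt3 (0.95), Spint2 (0.94) and Tbck (0.94) were nearest to Nfkbiz, the first 2 at no more than 2.63 CPM. Cebpa was most like Pik3r4, a subunit of the class III PI3 kinase complex (0.97), Cdk5r1 (0.97) and Irf2bp1 (0.96), with r of 0.91, 0.89 and 0.83 without itaconate replicate 3. Cdk5r1 held at most 4.17 CPM.

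The partners of these factors were described from 9 lists of 83 different genes, 77 of which were tested. None passed the edgeR threshold in any comparison, and 4, 10 and 13 had an unadjusted p under 0.05 in the 3 comparisons as ordered above. That is 5.19%, 13% and 16.9% of them, where 3.13%, 8.3% and 8.89% of all genes did. The lists were chosen with earlier results of these data known, so these shares are a description and not a test of the lists. Named genes are the 3 of each list with the smallest p for itaconate against KO. Fos, Mafk, Maff and Cxcl10 were named as well, after their values were seen.

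Jun, Fos and Maf proteins pair with ATF3 or with each other. All 11 tested members had higher means in itaconate than in KO libraries (median log2 fold change 0.35), and all 11 than in WT (0.63), where all genes had medians of -0.02 and -0.01. Junb, which encodes a partner in AP-1 dimers, stood at 147, 117 and 146 CPM in WT, 69.2, 95.9 and 160 in KO, and 186, 254 and 211.5 in itaconate. The itaconate libraries were above all KO and all WT libraries, as 5.61% and 7.3% of all genes were. Like Cebpb, Junb was higher in every library outside number 1 than in every library of number 1. So were Mafk and Maff of this list, and 3.13% of all genes. The log2 fold change of Junb was 1 ± 0.32 for itaconate against KO (edgeR adjusted p = 0.507), and Junb was called only without the 4 libraries (1.38, adjusted p = 0.0474). Jund held 94.2, 94.6 and 136 CPM in WT, 201, 81.4 and 235 in KO, and 137, 241 and 1044 CPM in itaconate, the last being replicate 3. Jund and Fos were called for itaconate against WT when low-count genes were kept (2.11 and 1.59, edgeR adjusted p = 0.00149 and 0.0371). That fit called 0.556% of 14936 genes as higher and 0.0603% as lower. Fos, named after its values were seen, held 28.3, 21.4 and 31.4 CPM in WT and 74.6, 20.9 and 82.5 in KO. In itaconate it held 42.3, 33.4 and 172 CPM, the last again being replicate 3. Fosl1, at 0.293 to 4.55 CPM, was highest in that library too. Of the 11, 7 were higher in itaconate than in KO without itaconate replicate 3, and 3 with the number as a term.

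None of the 3 tested genes on the list of other genes named C/EBP and the partner CHOP was separated by description number. Of all genes, 3.13% were separated as Cebpb was and 1.98% in the other direction, so none among 3 genes says little. Cebpg, which encodes a C/EBP that lacks an activation domain, held 85.6, 58.6 and 65.7 CPM in WT, 101.3, 109 and 167 in KO, and 62.4, 76 and 166 in itaconate libraries. KO exceeded WT by 0.85 ± 0.37 on the log2 scale (adjusted p = 0.995). Cebpz, a C/EBP gene by name only, differed by 0.75 ± 0.34 in the same comparison. Every KO library was above every WT library for Cebpg and for Cebpz, as for 4.85% of all genes. Ddit3, which encodes the C/EBP partner CHOP, differed by 0.01 ± 0.29. Cebpe, the granulocyte member, had at most 6 reads in a library and was not tested.

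Among 14 ATF and CREB genes, 5 were higher and 9 lower in itaconate than in KO libraries (median -0.09). Atf4, the integrated stress response factor that drives Atf3, lay at 380, 1227 and 467 CPM in KO and at 324, 329 and 361 in itaconate, a log2 difference of -1.03 ± 0.38 (adjusted p = 0.523). The KO libraries, replicate 2 far highest, were all above the itaconate libraries, and 5.29% of genes were separated in this direction. Atf2 and Atf7 differed by 0.85 ± 0.49 and -0.5 ± 0.3. Of 10 tested integrated stress response genes, 4 were higher and 6 lower in itaconate than in KO libraries (median -0.14). Between KO and WT, 9 were higher in KO and 1 lower (median 0.42), where 48.9% of all genes were higher (median -0.01). Eif2ak4, the amino acid sensing kinase GCN2, was -0.95 ± 0.39 in itaconate against KO, and Eif2ak2, the double-stranded RNA kinase PKR, was 0.51 ± 0.33.

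IκB and NF-κB genes, which include the relatives of Nfkbiz, had 8 of 10 members higher in itaconate than in KO (median 0.18). Nfkbie, which encodes IκBε, stood at 272 CPM in WT replicate 3 and 292 CPM in itaconate replicate 2 and at 18.9 to 32.4 CPM in the other 7 libraries. Rel and Nfkb1 differed by 0.41 ± 0.29 and 0.49 ± 0.29. Of 12 LPS receptor and Nfkbiz control genes, 7 were higher (median 0.17). Rc3h1, which encodes roquin-1, an RNA-binding protein that promotes decay of immune messages, was 1.31 ± 0.44 and highest, at 484 CPM, in itaconate replicate 3. Myd88, the adaptor through which Toll-like receptors reach NF-κB, was -0.78 ± 0.34, and Traf6 was 0.64 ± 0.37. With all 9 libraries none was called (edgeR adjusted p = 0.507 to 0.732 for the named genes of this paragraph). Without the 4 libraries of conflicting Irg1 reads Nfkbie was called for itaconate against KO (2.45 ± 0.65, adjusted p = 0.04997), where 1 of the 2 itaconate libraries kept is the high replicate 2.

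Genes known to depend on these factors gave mixed directions. Of 6 tested IκBζ-dependent genes, 1 was higher and 5 were lower in itaconate than in KO (median -0.16). Lcn2, the secreted siderophore-binding protein lipocalin-2, held 447, 507 and 607 CPM in WT, 492, 641 and 377 in KO, and 349, 387 and 172 in itaconate. Every itaconate library was below every WT library, and 7.25% of all genes were separated in this way. The log2 fold change was -0.78 ± 0.33 against WT (adjusted p = 0.545) and -0.73 ± 0.33 against KO (adjusted p = 0.594). Lcn2 was also lower in all 4 libraries outside number 1 than in all 5 of number 1, as were 1.98% of all genes. Edn1 (0.47 ± 0.57) and Ptges (-0.32 ± 0.38) were the other named genes, and Csf2 and Csf3 had at most 1 and 3 reads and were not tested. The C/EBP target list, which shares Il6, Lcn2 and Csf3 with this one and holds the macrophage markers Csf1r and Lyz2, had 3 of 11 tested members higher (median -0.2). In it Nos2, the inducible nitric oxide synthase, was -0.99 ± 0.42 and Chil3 -0.96 ± 0.46 (adjusted p = 0.568 and 0.597).

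Genes that ATF3 is known to repress had 4 of 7 tested members higher and 3 lower in itaconate than in KO libraries (median 0.41). Of this list Nos2, also given above as a C/EBP target, had the smallest p and was lower (-0.99 ± 0.42, edgeR adjusted p = 0.568). Ccl4, a chemokine, held 78.1, 39.4 and 141 CPM in WT, 36.7, 53.3 and 132 in KO, and 130, 131 and 127 in itaconate. Its log2 fold change for itaconate against KO was 0.81 ± 0.47 (edgeR adjusted p = 0.663), and 1.51 without the 4 libraries of conflicting Irg1 reads. Cxcl10, named after its values were seen, was 0.44 ± 0.71 with all 9 libraries (edgeR adjusted p = 0.89) and 1.98 without the 4. It held 287, 39.8 and 316 CPM in WT, 43.7, 88.7 and 431 in KO, and 304, 229 and 231 in itaconate. The fit without the 4 sets 2 KO libraries of number 1 against 2 itaconate libraries of numbers 2 and 3. Ch25h, the cholesterol 25-hydroxylase, was 1.02 ± 0.67 at 0.733 to 6.03 CPM. Like Cebpb, it was higher in every library outside number 1 than in every library of number 1, as were 3.13% of all genes. Ifnb1 was not tested, with at most 22 reads in a library.

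**Figure D4:**
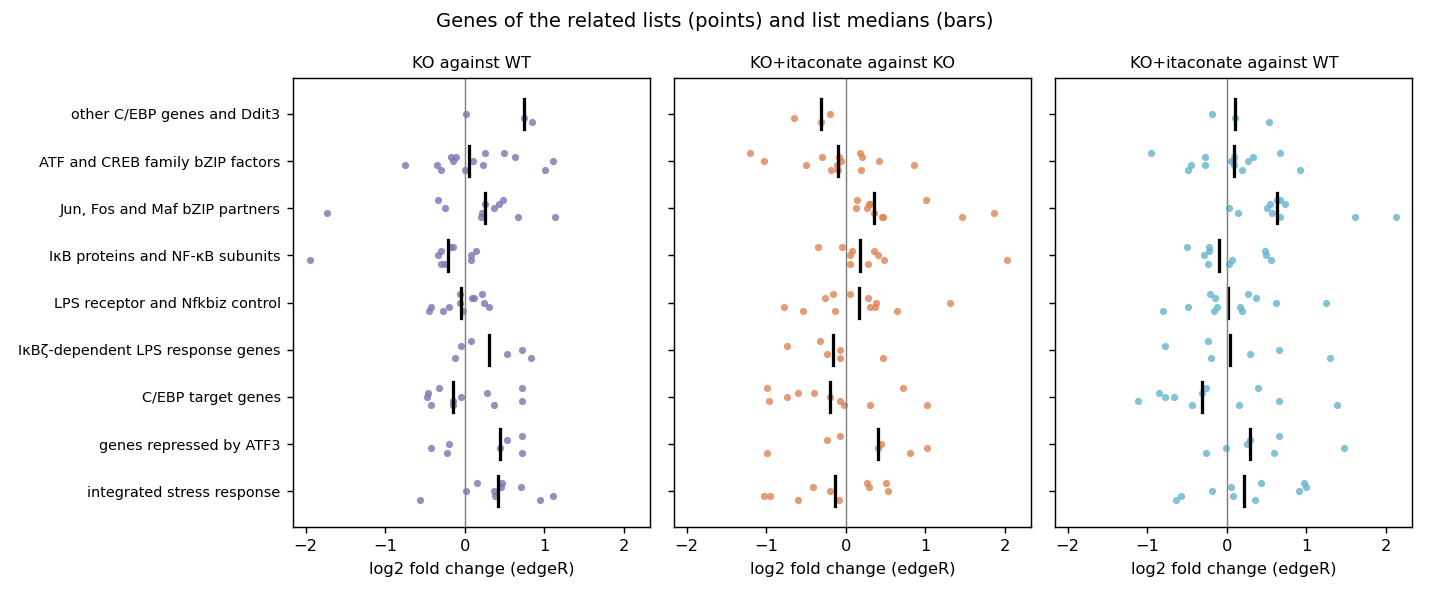
Log2 fold change (x axis) of every tested gene (points) of the 9 lists (rows) in the 3 comparisons, with each list's median (black bars). All 11 Jun, Fos and Maf genes lie right of 0 in both comparisons with itaconate, and the other lists hold points on both sides of 0 or have only 3 genes.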

How the data were processed

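Raw counts of reads per gene were deposited by the authors in 1 table. The submitters' processing notes name STAR, HTSeq and mm10, and versions and annotation release are not given in the sources used here. Per the labels' protocols, messenger RNA was copied with barcoded oligo-dT primers, pooled and sequenced with strand kept, so reads lie near 3′ ends, do not scale with transcript length, and levels of different genes were not compared. Intervals of fold changes come from the edgeR fit and include the spread between libraries as well as counting error. No molecular identifier is mentioned, and the floors cover counting error only. The 3 reads that bound a count of 0 correspond to 0.147 to 0.408 CPM. The 5 summary lines of the counter were left out: reads outside genes were 23.1% to 33.7%, multiply aligned reads 17.1% to 20.0% and ambiguous reads 0.275% to 0.441% of a library.

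Identifiers were matched to symbols without their version (21745 of 22165), and positions are from GENCODE M21 (GRCm38, the same build as mm10). Counts entered edgeR 4.0.16 (R 4.3.3, quasi-likelihood F test, two-sided) with all 9 libraries in 1 fit, group as the only term, TMM factors and a minimum count of 10 in its filter, which left 10781 genes. P-values were Benjamini-Hochberg adjusted over those genes, with a threshold of 0.05. Simulated counts had 100 genes changed 4-fold and 100 changed 2-fold. Of these, 60 and 6 were recovered for KO against WT (10579 genes) and 86 and 5 for itaconate against KO (10617 genes). For itaconate against WT, 74 and 7 were recovered (10597 genes). False calls numbered 4, 4 and 3 in this order. The simulated libraries held no label conflict and no split by description number, so these rates need not hold for the real libraries. Alternatives used DESeq2 1.42.0, limma 3.58.1, other scaling, no filter, blocks and left-out libraries. No group held 2 libraries alike within sampling noise. Log2 CPM for correlations used a prior count of 2. Marker sums use gene reads without TMM.

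Named genes were the members, Irg1, the 3 list genes with the smallest p for itaconate against KO and the 3 genes with the highest r to each member (not printed for Cebpb). Fos, Mafk, Maff, Cxcl10 and the 5 genes split more widely than Cebpb by description number were named after their values were seen. Members and lists were chosen with earlier results of these data known.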

Additional observations from a re-analysis of the deposited data

How the results depend on the processing

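Of 232 values of the 4 genes under 20 other settings, 197 kept their direction and their side of the threshold, 33 changed sign without being called, and 2 became calls. Both calls were Cebpb: 1.43 for itaconate against WT without a filter on low counts, and 1.84 for itaconate against KO without the 4 libraries of conflicting Irg1 reads.

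For KO against WT, Atf3 lay at 0.0016 with DESeq2 size factors and with DESeq2, 0.0039 without a filter, 0.0080 with only the 2 groups, 0.064 with limma-voom and 0.069 with the replicate block. With the description number as a block Cebpa was 0.079, 0.47 and 0.55 for KO against WT, itaconate against KO and itaconate against WT, Cebpb -0.49 and -0.32 for the first and the last, and Nfkbiz -0.49 for the last. Without the 4 libraries Cebpb was -0.85 for KO against WT and Cebpa 0.18 for itaconate against KO. Within number 1, a setting added after the data were seen, Cebpa was 0.10 and Cebpb -0.47.

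Leaving out each library in turn gave, for KO against WT, itaconate against KO and itaconate against WT in this order, -0.26 to 0.19, -0.59 to 0.026 and -0.57 to 0.025 for Atf3. Cebpa gave -0.34 to 0.11, -0.47 to 0.34 and -0.53 to 0.30. Cebpb gave -0.47 to 0.82, 0.63 to 1.93 and 1.3 to 1.68. Nfkbiz gave 0.19 to 0.32, -0.22 to 0.085 and 0.05 to 0.35. The cause of these shifts was not tested.

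Over all genes, in the same order, the calls numbered 0, 80 and 92 without a filter, 1, 11 and 23 with DESeq2, and 2, 217 and 1 without the 4 libraries, where 1 WT library is assumed to vary like the other groups. Leaving out 1 library gave 0, 0 to 6 and 0 to 4 calls, the 6 and the 4 without itaconate replicate 1. With the replicate block there were 0 calls in each comparison and Cebpb was 0.22, 1.3 and 1.52. Same-numbered libraries deviated from their group means with correlations of -0.16 to 0.24, so the numbers were not taken to pair them. Without scaling factors the median over all genes was -0.11 for itaconate against WT. The Jun, Fos and Maf genes with higher values numbered 3 and 4 of 11 with the description number as a block, for itaconate against KO and against WT, and 7 for itaconate against KO without itaconate replicate 3 or without the 4 libraries.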

Other observations

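The split of libraries by description number was wider than that of Cebpb for 5 genes, named after their values were seen. They were Usf1, a bHLH transcription factor (lowest of the 4 other libraries over highest of the 5 of number 1, 2.28-fold), Alyref, an RNA export adaptor (2.15-fold), Pfn1, the actin-binding protein profilin-1 (1.97-fold), Tap2, a subunit of the peptide transporter for MHC class I (1.8-fold), and Gigyf1 (1.75-fold). In the other direction, 1.98% of the 10781 genes were lower in all 4 other libraries than in all 5 of number 1. No explanation was tested.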
